A study of Mus musculus with 2 samples.

Results

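Immediate early genes and Krüppel-like factor genes were followed in single-cell RNA-sequencing data from mouse embryonic brain. The 10 genes Fos, Jun, Junb, Egr1, Atf3, Nr4a1, Ier2, Zfp36, Klf2 and Klf4 were taken by symbol, and all 10 were found among the 31253 genes of each count matrix. There was 1 library per genotype, both of E12.5 brain: Foxq1iECKO, a label that with the title of the series points to loss of the forkhead factor gene Foxq1 in endothelial cells, and Foxq1flox/flox, which carries the floxed allele. The sources used here do not name the Cre driver, the induction or the number of embryos behind each library. Tissue of both genotypes was digested with collagenase IV, dispase II and DNase I for 90 min at 37 °C, with fresh enzyme every 30 min. CD31 beads then enriched the target cells, and the NovelCyto microwell system counted transcripts by their 3′ ends, each marked by a unique molecular identifier (UMI). With 1 library per genotype no difference between them has a replicate check, so sizes are given with counting intervals and without p-values.

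Immediate early genes are transcribed within minutes of a stimulus from factors already present in the cell, without new protein synthesis. They respond to growth factors, calcium, mechanical force and stress, and enzymatic dissociation at body temperature is a known inducer of Fos, Jun, Egr1 and their relatives in many tissues. KLF2 and KLF4 are zinc finger transcription factors that blood flow induces in endothelium through the MEKK3, MEK5, ERK5 and MEF2 cascade, and they hold vessels in a quiescent state. Both genes also behave as immediate early genes in other cells.

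Promoter sequences are printed for 4 genes on which the results below turn: Fos, the best-known immediate early gene, Jun, whose levels ran most like those of Fos across cell classes, Nr4a1, which differed between the libraries in endothelial-like cells, and Klf2. They come from RefSeq on GRCm38.p6, are read 5′ to 3′ on the strand of the gene and end upstream of the RefSeq start. For Nr4a1 that start lies inside the gene as GENCODE M21 annotates it, which begins at chr15:101254269. Of the 10 genes, 8 had a promoter entry. Capitals mark TGACG or its reverse complement CGTCA, the core of the cAMP response element that CREB binds, in Fos and Nr4a1, and a MEF2 site in Jun and Klf2.
Fos (chr12:85473760-85473889, plus strand): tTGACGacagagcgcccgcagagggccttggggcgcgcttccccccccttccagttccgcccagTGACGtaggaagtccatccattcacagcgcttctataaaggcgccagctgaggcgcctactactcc
Jun (chr4:95052223-95052352, minus strand): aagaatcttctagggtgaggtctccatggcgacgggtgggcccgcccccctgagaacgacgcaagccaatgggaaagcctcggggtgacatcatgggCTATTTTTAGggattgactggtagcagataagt
Nr4a1 (chr15:101266596-101266845, plus strand): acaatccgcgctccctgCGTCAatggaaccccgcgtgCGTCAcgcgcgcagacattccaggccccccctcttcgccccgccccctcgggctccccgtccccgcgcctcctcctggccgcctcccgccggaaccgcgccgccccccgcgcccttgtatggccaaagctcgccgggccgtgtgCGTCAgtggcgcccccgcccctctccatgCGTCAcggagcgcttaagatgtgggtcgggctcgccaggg
Klf2 (chr8:72318932-72319031, plus strand): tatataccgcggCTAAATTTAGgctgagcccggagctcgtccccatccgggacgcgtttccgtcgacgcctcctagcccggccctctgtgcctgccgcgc

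The 250 bases before the RefSeq start of each gene were searched on both strands for TGACG, for the AP-1 site TGANTCA, for the CArG box that SRF binds and for the MEF2 site. Nr4a1 held 4 copies of TGACG, which begin 233, 213, 69 and 40 bases before its RefSeq start, and Fos held 2 copies, at 129 and 66 bases. Junb, Atf3, Klf2 and Klf4 held 1 copy each, so 6 of the 8 promoters had at least 1, against 17.8% of 32851 promoters of the same length. A MEF2 site was found in Jun, Atf3 and Klf2, and in 0.508% of all promoters. Zfp36 held a CArG box, found in 1.47% of all promoters, and none of the 8 held TGANTCA, found in 6.75%. These are matches of letters in a window and no measure of binding. Other spellings and bases farther upstream were not searched, so TGACATCA in the printed Jun stretch was not counted.

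The libraries held 72445925 UMIs over 15108 barcodes in Foxq1iECKO and 76580165 UMIs over 15837 barcodes in Foxq1flox/flox. After filters, 12526 and 13350 cells were used, with medians of 4058 and 4166 UMIs. Although both samples were labelled as endothelial cells, clusters with blood endothelial markers made up 1599 Foxq1iECKO cells and 2272 Foxq1flox/flox cells, and most other cells were fibroblast-like, macrophage-like, cartilage-like, neuron-like or radial glia-like. Levels are given as CPM, the UMIs of a gene scaled to the UMI total of the cells summed. Foxq1 itself was at 149 CPM in Foxq1iECKO endothelial-like cells and 439 CPM in Foxq1flox/flox endothelial-like cells, a log2 ratio of −1.56 with a 95% counting interval of −1.64 to −1.48. The labels do not describe the deleted part of Foxq1, and 3′ tags can lie outside it. The libraries shared 270 barcodes, of which 172 were used in both, and without these cells the Nr4a1 ratio below was −0.66. The 10 genes and the other immediate early and heat shock genes were kept out of the genes that defined the clusters.

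Across cell classes the genes fell into patterns of their own, and endothelial-like cells were not where the AP-1 genes and Egr1 were highest. Levels are comparable between classes for 1 gene but not between genes. The 12 classes and unnamed clusters with at least 100 cells in both libraries were ranked.

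**Figure D1:**
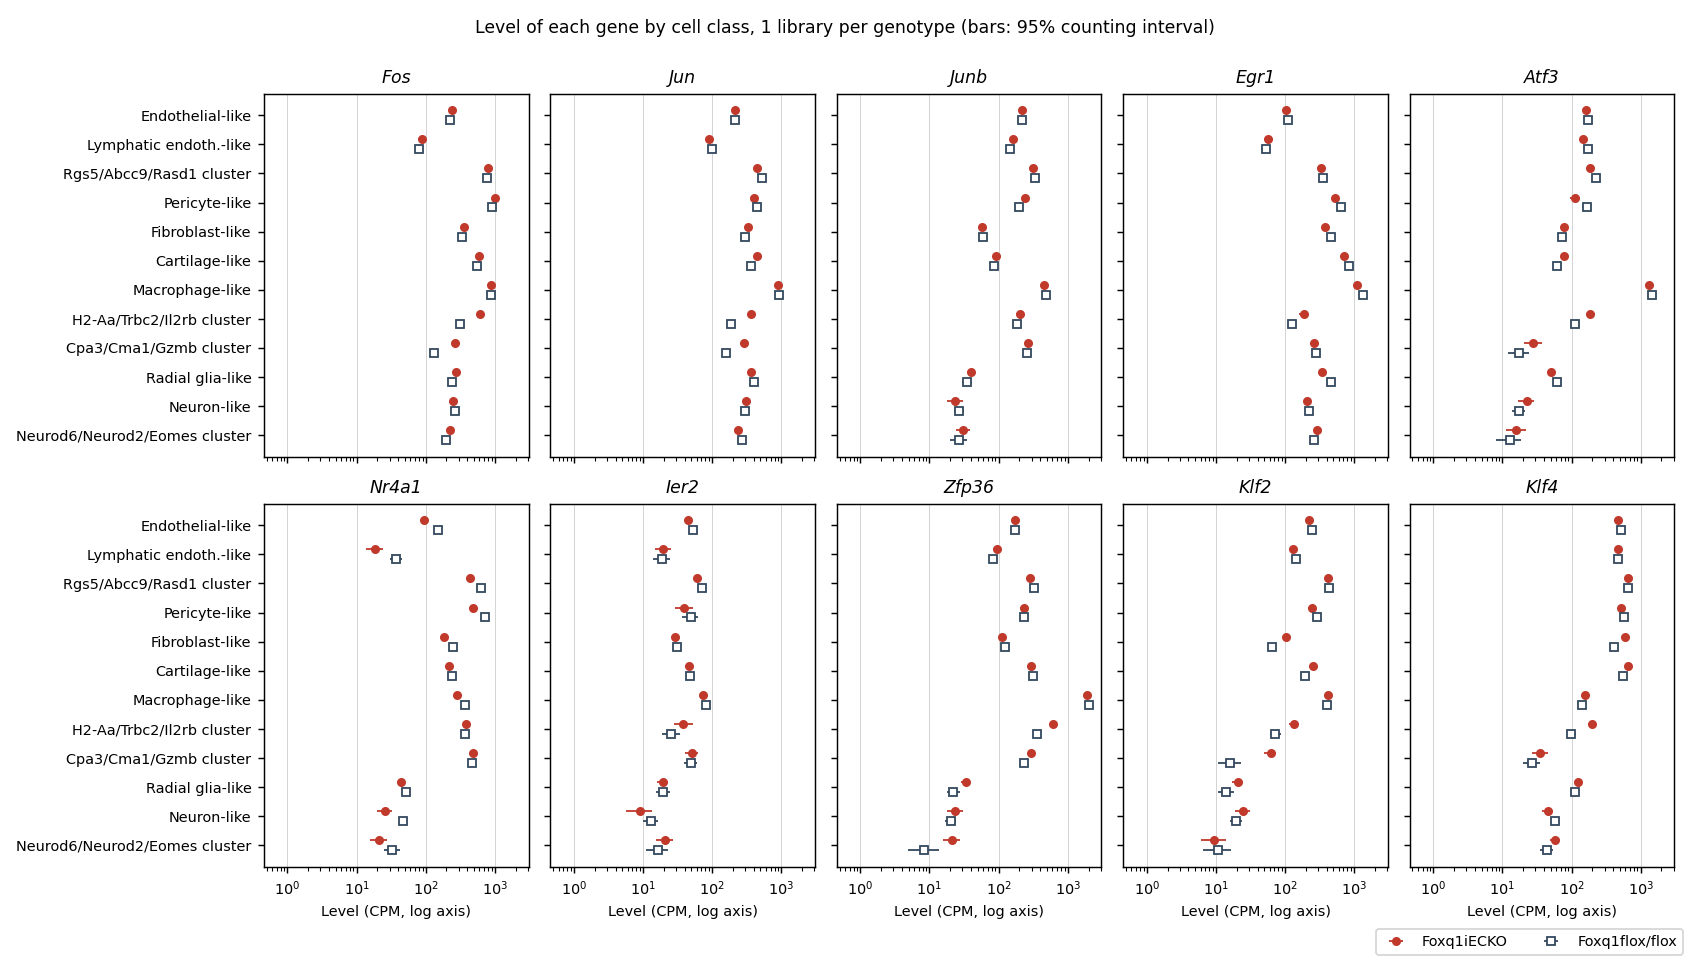
Level of each of the 10 genes (CPM, log axis) in 12 cell classes or unnamed clusters, with Foxq1iECKO as filled circles and Foxq1flox/flox as open squares; bars are 95% Poisson counting intervals. The circles and squares of a row mostly lie close together, while rows differ far more, with macrophage-like cells at the right for Zfp36, Atf3, Egr1, Jun and Junb.

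Fos, which pairs with JUN proteins to form the transcription factor AP-1, was highest in pericyte-like cells, at 1007 CPM in Foxq1iECKO and 921 CPM in Foxq1flox/flox. Macrophage-like cells followed with 895 and 876 CPM, and in Foxq1flox/flox the counting intervals of these first classes overlapped. Endothelial-like cells had 240.4 and 228 CPM, and lymphatic endothelial-like cells were lowest, at 87.8 and 79.7 CPM. Jun, the other AP-1 partner, was highest in macrophage-like cells, with 885 CPM in Foxq1iECKO and 937 CPM in Foxq1flox/flox, and again lowest in lymphatic endothelial-like cells, with 91.4 and 97.9 CPM. Its single-exon gene (chr4:95049034-95052222, mm10, minus strand) overlaps Junos on the opposite strand, and the sources used here do not say whether counting used the strand. Junb, a JUN family member with weaker transactivation, ran differently. Its levels in endothelial-like cells, 219 and 217 CPM, stood above those in fibroblast-like cells, 57.0 and 59.7 CPM, and above those in neuron-like cells, 23.5 and 26.7 CPM. Junb overlaps Prdx2 on the opposite strand, so the same limit holds for it.

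Atf3, a stress-induced repressor of the ATF/CREB family, had 1299 CPM in Foxq1iECKO and 1442 CPM in Foxq1flox/flox macrophage-like cells. The next highest class by its Foxq1flox/flox level, the unnamed Rgs5/Abcc9/Rasd1 cluster, had 188 and 229 CPM. Endothelial-like cells had 162 and 175 CPM and lymphatic endothelial-like cells 149 and 173 CPM, and in Foxq1flox/flox these neighbours did not differ beyond their counting intervals. Zfp36 encodes tristetraprolin, which binds AU-rich elements and speeds the decay of cytokine and immediate early mRNAs. It had 1878 and 2062 CPM in macrophage-like cells, against 171 and 175 CPM in endothelial-like cells. In neuron-like cells it was at 23.5 and 20.3 CPM.

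Egr1, a zinc finger factor downstream of SRF, was transcribed from chromosome 18 (chr18:34859823-34864984, mm10). Its levels were 1084 CPM in Foxq1iECKO and 1361 CPM in Foxq1flox/flox macrophage-like cells, and 714 and 853 CPM in cartilage-like cells. Endothelial-like cells, at 104 and 111 CPM, ranked 11th of 12 in Foxq1flox/flox, above lymphatic endothelial-like cells at 57.5 and 52.3 CPM. The order for Nr4a1, an orphan nuclear receptor, was another one again. Pericyte-like cells had 477 and 719 CPM, and the unnamed Rgs5/Abcc9/Rasd1 cluster had 443 and 628 CPM. Ier2, a short nuclear protein gene with 1 exon, was low in every class, from 72.8 and 81.8 CPM in macrophage-like cells to 9.02 and 12.96 CPM in neuron-like cells.

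Klf2 and Klf4 were shared by vascular, mural and skeletal cells and were low in neural cells. Klf2 had 219.9 CPM in Foxq1iECKO and 248.8 CPM in Foxq1flox/flox endothelial-like cells, 424 and 426 CPM in the Rgs5/Abcc9/Rasd1 cluster and 416 and 399 CPM in macrophage-like cells. In radial glia-like cells it had 20.7 and 13.9 CPM. Klf4 had 477 and 519 CPM in endothelial-like cells, 469 and 468 CPM in lymphatic endothelial-like cells and 511 and 576 CPM in pericyte-like cells. Macrophage-like cells had only 157 and 143 CPM of Klf4, and neuron-like cells 45.1 and 57.2 CPM. The Rgs5/Abcc9/Rasd1 cluster held 9 of 12 endothelial and 6 of 9 pericyte markers, and its leading genes held pericyte markers such as Rgs5 and Abcc9. It was therefore given no cell type name and was kept out of the endothelial-like cells. Its medians were 8777.5 and 9409 UMIs per cell.

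Set against all other cells of the same library, 6 of the 10 genes had a lower level in endothelial-like cells in both libraries and 4 a higher one, though the Foxq1iECKO interval of Ier2 included no difference. The log2 ratio of endothelial-like over other cells was −2.21 in Foxq1iECKO and −2.32 in Foxq1flox/flox for Egr1, the lowest of the 10 in both. It was −1.44 and −1.32 for Zfp36, −1.09 and −0.96 for Fos, −1.02 and −0.92 for Jun, −1.22 and −0.79 for Nr4a1, and −0.90 and −0.67 for Atf3. Klf2 was at 0.10 in Foxq1iECKO, with a counting interval of 0.03 to 0.16, and at 0.55 in Foxq1flox/flox, with an interval of 0.50 to 0.61. Klf4 was at 0.29 and 0.69, Junb at 0.27 and 0.40, and Ier2 at 0.10 and 0.36. The smaller Klf2 and Klf4 ratios in Foxq1iECKO had a lower level in endothelial-like cells and a higher one in the other cells. Among the other cells, Klf2 had 206 CPM in Foxq1iECKO and 169 CPM in Foxq1flox/flox, and Klf4 389.9 and 322 CPM. The other cells include lymphatic endothelial-like cells and the Rgs5/Abcc9/Rasd1 cluster. That cluster held 822 Foxq1iECKO and 483 Foxq1flox/flox cells, and the neuron-like class 767 and 1561. The part of this cell mix in the ratios was not tested. These ratios depend on which cells count as endothelial and on the scaling: TMM factors gave 0.38 and 0.89 for Klf2, and a marker gate on single cells gave −0.26 and 0.21.

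In pooled endothelial-like cells, 9 of the 10 genes were within 1.5-fold between the genotypes. Fos had 240.4 CPM in Foxq1iECKO and 228 CPM in Foxq1flox/flox, a log2 ratio of 0.08 with a counting interval of 0.00 to 0.15. Jun had 215 and 213 CPM and Junb 219 and 217 CPM, both at a log2 ratio of 0.01. Egr1 was at −0.09, with an interval of −0.20 to 0.03. The AP-1 genes and Egr1 therefore lay close to the median of all genes, which was −0.02. Atf3 was at −0.11, with 162 and 175 CPM, and Zfp36 at −0.03. Ier2, at 44.1 and 53.3 CPM, was at −0.27 with an interval of −0.44 to −0.11. The flow-responsive Klf2 was at −0.18, with an interval of −0.25 to −0.10, and Klf4 at −0.12, with an interval of −0.17 to −0.07. Neither held with the same weight for each endothelial subcluster in both libraries. Klf2 was then at −0.02, with an interval of −0.10 to 0.07, and Klf4 at −0.003, with an interval of −0.06 to 0.05.

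Nr4a1 was the only one of the 10 past the size rule, which asks for a ratio of at least 1.5 and a counting interval that excludes no difference. It had 94.5 CPM in Foxq1iECKO and 151 CPM in Foxq1flox/flox endothelial-like cells, from 949 and 2332 UMIs. The log2 ratio was −0.68, with an interval of −0.79 to −0.57. It was below 0 in all 16 alternatives and past the size rule in 10 of them. Without the call were the stricter cell filter at −0.48, clustering resolution 0.5 at −0.10, the marker gate at −0.39, thinning to 2000 UMIs at −0.50 and the 2 alternatives given with the subclusters. Of the 7998 genes that reached 10 CPM in either library, 0.888% were higher and 0.963% lower by the same rule. Against that background 0 of the 10 members were higher and 1 was lower, and their median log2 ratio was −0.10. The heat shock genes summed to 3529 CPM in Foxq1iECKO and 3786 CPM in Foxq1flox/flox, and the median mitochondrial share was 8.51% and 8.60%. The 9 pericyte markers summed to 271 and 218 CPM in these cells and all 9 were higher in Foxq1iECKO. The 10 macrophage markers summed to 40.8 and 27.6 CPM, with 9 of 10 higher. The part of such RNA in the ratios was not tested.

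**Figure D2:**
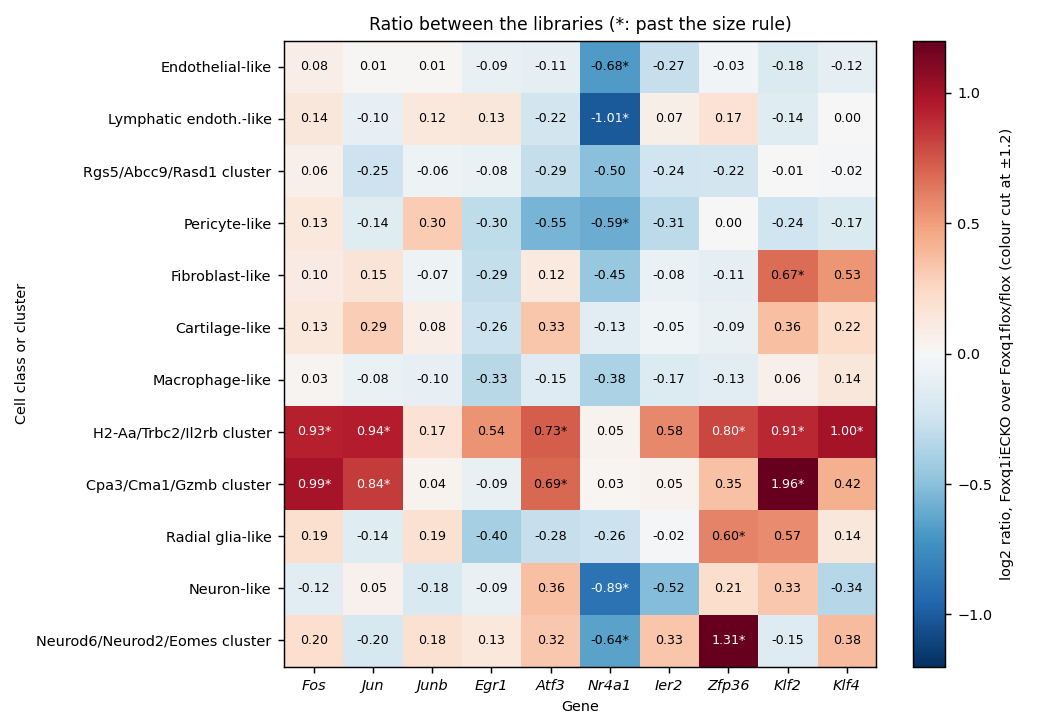
Log2 ratio of Foxq1iECKO over Foxq1flox/flox for each gene (columns) in 12 cell classes or unnamed clusters (rows), with red for higher and blue for lower in Foxq1iECKO; an asterisk marks a ratio past the size rule. The Nr4a1 column is blue in 10 of 12 rows, and the rows of the H2-Aa/Trbc2/Il2rb and Cpa3/Cma1/Gzmb clusters are red for Fos, Jun, Atf3 and Klf2.

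Nr4a1 encodes NUR77, a nuclear receptor that acts without a known endogenous ligand and is induced by VEGF and by calcium signals in endothelium. Its gene spans chr15:101254269-101274795 (mm10, plus strand) with no overlapping gene in GENCODE M21. The lower level was not confined to endothelial-like cells: the log2 ratio was below 0 in 10 of the 12 classes and clusters, its interval lay below 0 in 9, and it was lower by size in 5. The call was made in 14 of 15 alternatives in lymphatic endothelial-like cells, in 14 in neuron-like cells and in 10 in pericyte-like cells, where the ratio ran from −0.71 to −0.47. Lymphatic endothelial-like cells had 18.4 CPM in Foxq1iECKO and 37.1 CPM in Foxq1flox/flox, a log2 ratio of −1.01, where 2.33% of all genes were lower by size. Neuron-like cells had 25.5 and 47.2 CPM, a ratio of −0.89 beside 1.96% of all genes. Pericyte-like cells had 477 and 719 CPM, a ratio of −0.59 beside 3.82% of all genes. The Neurod6/Neurod2/Eomes cluster had 21.03 and 32.8 CPM, a ratio of −0.64 beside 4.46%. These classes differ widely in Nr4a1 level, and the direction was shared. All of them come from the same libraries, so the shared direction is no repeat of the comparison. A direction shared by most of the 12 classes and clusters was not particular to Nr4a1. The Fos ratio was above 0 in 11 of them, with its interval above 0 in 8. For Egr1 it was below 0 in 9, with its interval below 0 in 5. Over all cells but the endothelial-like ones, Nr4a1 had 221 CPM in Foxq1iECKO and 262 CPM in Foxq1flox/flox. The part of RNA from other cells in the low levels was not tested. Foxq1 itself was lower by size in lymphatic endothelial-like cells, at −1.45, and in macrophage-like cells, at −0.68. It was at −0.21 in pericyte-like and 0.01 in fibroblast-like cells.

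The 2 neuron-like clusters both had less Nr4a1 in Foxq1iECKO and differed in Klf4. In the cluster led by Pou4f1 and Lhx1, Nr4a1 had 26.7 CPM in Foxq1iECKO and 44.2 CPM in Foxq1flox/flox, at −0.73, and Klf4 had 36.2 and 66.4 CPM, at −0.87, beside 2.66% of all genes lower by size. In the cluster led by the interneuron gene Dlx1, Nr4a1 had 23.1 and 52.7 CPM, at −1.19, beside 2.43% of all genes lower. Klf4 was higher there, with 62.5 and 40.7 CPM, a ratio of 0.62, and so was Atf3, with 28.9 and 15.2 CPM, beside 2.53% of all genes higher.

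In larger classes the Nr4a1 ratio was below 0 without passing the size rule. Fibroblast-like cells had 183 CPM in Foxq1iECKO and 251 CPM in Foxq1flox/flox, at −0.45, and macrophage-like cells had 283 and 369 CPM, at −0.38. The Rgs5/Abcc9/Rasd1 cluster was at −0.50 and cartilage-like cells at −0.13. Radial glia-like cells, at −0.26, had an interval of −0.53 to 0.01 that includes no difference. The H2-Aa/Trbc2/Il2rb cluster, with 382 and 370 CPM, and the Cpa3/Cma1/Gzmb cluster, with 480 and 471 CPM, were at 0.05 and 0.03. In pericyte-like cells the 8 fibroblast markers summed to 2776 CPM in Foxq1iECKO and 4131 CPM in Foxq1flox/flox, with 0 of 8 higher in Foxq1iECKO, and the 5 smooth muscle markers to 195 and 353 CPM. Their part in the Nr4a1 ratio of that class was not tested.

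**Figure D3:**
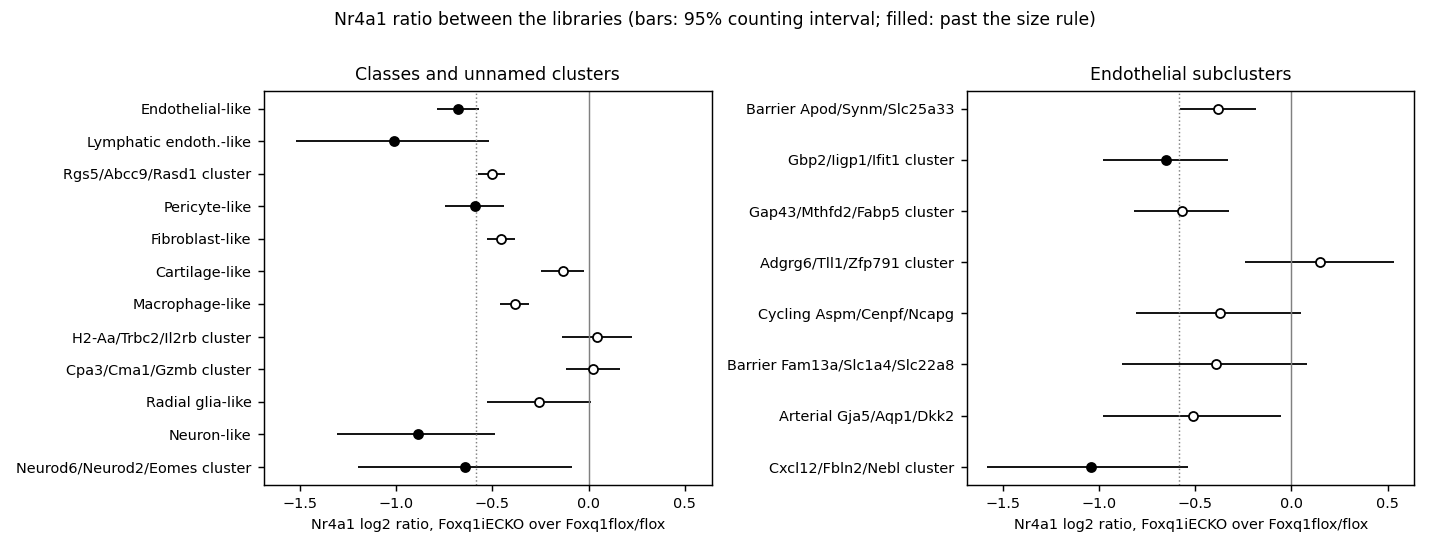
Nr4a1 log2 ratio of Foxq1iECKO over Foxq1flox/flox in 12 cell classes or unnamed clusters (left) and 8 endothelial subclusters (right); bars are 95% counting intervals, filled points are past the size rule, the solid line marks no difference and the dotted line a 1.5-fold lower level. All but 3 of the 20 points lie left of the solid line, and the lowest are the Cxcl12/Fbln2/Nebl subcluster at −1.04 and the lymphatic endothelial-like cells at −1.01.

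Within the 8 endothelial subclusters, 7 had an Nr4a1 ratio below 0. The Cxcl12/Fbln2/Nebl subcluster, which holds arterial and barrier markers, had 151 CPM in 54 Foxq1iECKO cells and 310 CPM in 120 Foxq1flox/flox cells, a log2 ratio of −1.04, where 2.06% of all genes were lower by size. The Gbp2/Iigp1/Ifit1 subcluster, led by interferon-induced genes, had 42.9 and 67.5 CPM, a ratio of −0.65 beside 2.02%. The barrier subcluster led by Apod had 158 and 206 CPM, at −0.38, and the arterial subcluster had 112 and 159 CPM, at −0.51. The Adgrg6/Tll1/Zfp791 subcluster, at 162 and 146 CPM, was at 0.15 with an interval of −0.24 to 0.53. With the same weight for each subcluster in both libraries, the ratio over all 8 was −0.39, with an interval of −0.51 to −0.27, short of the size rule. With the clusters of endothelial and other markers added to the endothelial-like cells, it was −0.08. The larger added cluster, Rgs5/Abcc9/Rasd1, was itself at −0.50, with 443 CPM in 822 Foxq1iECKO cells and 628 CPM in 483 Foxq1flox/flox cells. The −0.08 is thus not the ratio within either set of cells, and the part of the cell mix in it was not tested.

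The share of cells with an Nr4a1 UMI gave the same direction with a smaller gap. At a fixed 2000 UMIs per cell, 14.3% of 1307 Foxq1iECKO endothelial-like cells and 17.4% of 1938 Foxq1flox/flox endothelial-like cells had one, with Clopper-Pearson intervals of 12.45% to 16.3% and 15.7% to 19.2%, which overlap. Before thinning the shares were 25.5% and 32.5%, and 292 and 334 shallower cells were left out. Median depths were 4077 and 4331 UMIs. In neuron-like cells the thinned shares were 4.75% and 7.69%, at median depths of 2935 and 3154 UMIs.

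Klf2 and Klf4 stood higher in Foxq1iECKO in fibroblast-like cells. Klf2, a gene of 3 exons at chr8:72319033-72321656 (mm10, plus strand), had 104 CPM in Foxq1iECKO and 65.4 CPM in Foxq1flox/flox fibroblast-like cells. The log2 ratio was 0.67, with an interval of 0.56 to 0.79, and 0.917% of 8728 genes were higher by size in that class. It was the 1 of the 10 genes past the rule there. Klf4, at chr4:55527143-55532466 (mm10, minus strand), had 587 and 408 CPM, a ratio of 0.53 and short of the rule. In all 5 fibroblast-like clusters both genes were above 0: Klf2 from 0.15 to 0.60 and Klf4 from 0.23 to 0.49. With the 5 clusters weighted alike in both libraries the ratios were 0.43 for Klf2 and 0.38 for Klf4, so Klf2 no longer passed the size rule. The 8 cartilage markers summed to 531 CPM in Foxq1iECKO and 368 CPM in Foxq1flox/flox fibroblast-like cells, and cartilage-like cells were higher in Klf2, at 252 and 196 CPM. The part of that mix in the ratio was not tested.

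**Figure D4:**
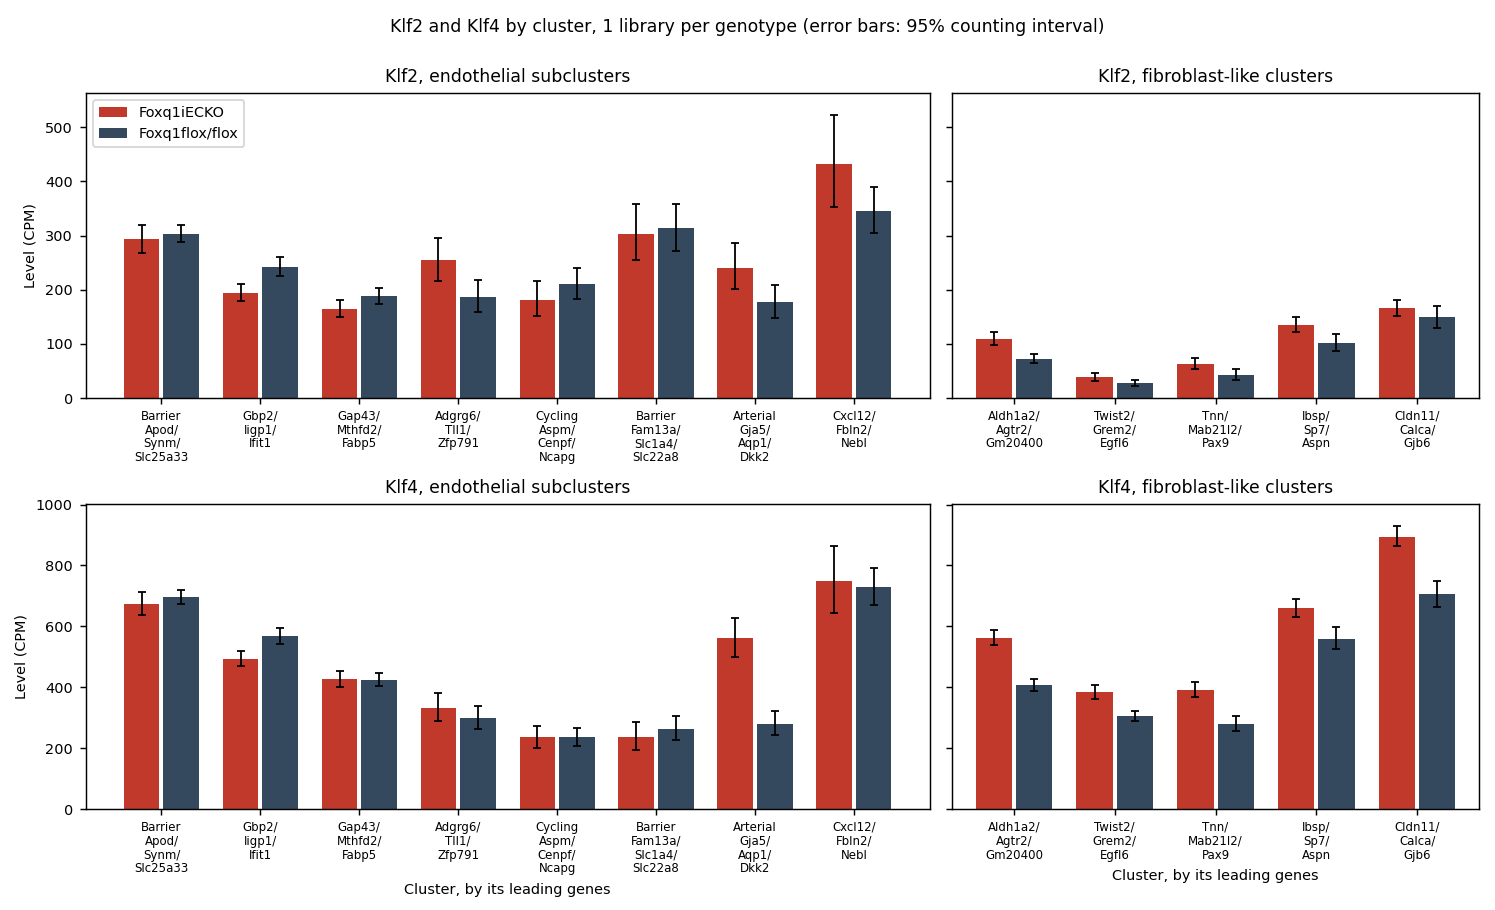
Klf2 (top) and Klf4 (bottom) levels in CPM in the 8 endothelial subclusters (left) and the 5 fibroblast-like clusters (right), with Foxq1iECKO in red left of Foxq1flox/flox in blue; error bars are 95% Poisson counting intervals. The red bar is the taller one in every fibroblast-like cluster, while endothelial subclusters go both ways and the arterial subcluster has the widest gap for Klf4, with 561 and 281 CPM.

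In endothelial subclusters the 2 KLF genes varied more between subclusters than between genotypes. Klf2 was highest in the Cxcl12/Fbln2/Nebl subcluster, with 431 CPM in Foxq1iECKO and 345 CPM in Foxq1flox/flox, and both barrier subclusters followed, with 293 and 303 CPM and with 303 and 313 CPM. Klf4 separated those barrier subclusters: it had 675 and 697 CPM in the one led by Apod and 238 and 265 CPM in the one led by Fam13a. Median depth differed between them too, at 5384 and 7780.5 UMIs in the Apod subcluster and 2373 and 2410 UMIs in the Fam13a subcluster. Cycling cells, led by Aspm and Cenpf, had 237 and 236 CPM of Klf4. The arterial subcluster, led by Gja5, was the only endothelial subcluster in which Klf4 passed the size rule. It had 561 CPM in 89 Foxq1iECKO cells and 281 CPM in 126 Foxq1flox/flox cells, a log2 ratio of 1.00 with an interval of 0.74 to 1.25, beside 2.6% of all genes higher by size. Klf2 in the same cells was at 240.5 and 177 CPM, a ratio of 0.44. In that subcluster the 8 fibroblast markers summed to 134 CPM in Foxq1iECKO and 77.0 CPM in Foxq1flox/flox with 4 of 8 higher, and the 12 endothelial markers to 7654 and 8750 CPM with 1 of 12 higher. Their part in the Klf4 ratio was not tested.

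The shares of endothelial-like cells with a KLF UMI were far above those of neuron-like cells. At 2000 UMIs per cell, 28.1% of Foxq1iECKO and 31.7% of Foxq1flox/flox endothelial-like cells had a Klf2 UMI, against 4.28% and 3.33% of neuron-like cells. How much of the neuron-like shares comes from RNA of other cells was not tested. For Klf4 the shares were 49.04% in Foxq1iECKO and 49.02% in Foxq1flox/flox, against 8.08% and 8.72% of neuron-like cells. Unthinned shares were 44.8% and 51.8% for Klf2 and 61.9% and 63.3% for Klf4. The Klf2 intervals, 25.7% to 30.6% and 29.6% to 33.8%, overlap between the genotypes.

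Among the 12 large classes and clusters, the largest count of higher members was in the H2-Aa/Trbc2/Il2rb cluster. H2-Aa encodes an MHC class II chain, Trbc2 a T cell receptor chain and Il2rb a cytokine receptor subunit, and the cluster held 273 Foxq1iECKO and 384 Foxq1flox/flox cells. There 6 of the 10 genes were higher by size, beside 3.66% of all genes, and the median log2 ratio of the 10 was 0.77 against −0.02 over all genes. Fos had 603 CPM in Foxq1iECKO and 316 CPM in Foxq1flox/flox, Jun 365 and 189.8 CPM, and Zfp36 619 and 355 CPM. Atf3 had 188 and 113 CPM, Klf2 136 and 72.6 CPM and Klf4 198 and 98.9 CPM. Nr4a1, at 0.05, and Junb, at 0.17, did not follow. The heat shock genes summed to 4867 and 3627 CPM in this cluster, the fibroblast markers to 374 and 216 CPM with 5 of 8 higher, the pericyte markers to 91.0 and 34.9 CPM with 6 of 9 higher, and the cartilage markers to 119 and 54.3 CPM with 7 of 8 higher. The cluster's markers of macrophages summed to 176 and 187 CPM. Their part in the higher members was not tested.

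The Cpa3/Cma1/Gzmb cluster, whose leading genes encode proteases of mast cells and cytotoxic cells, held 289 Foxq1iECKO and 319 Foxq1flox/flox cells. In it 4 of the 10 genes were higher by size, beside 2.8% of all genes. Klf2 had 61.9 CPM in Foxq1iECKO and 15.9 CPM in Foxq1flox/flox, a log2 ratio of 1.96 with an interval of 1.36 to 2.60. Fos had 263 and 132 CPM, a ratio of 0.99, and Jun 285 and 159.9 CPM, a ratio of 0.84. Atf3 had 28.2 and 17.5 CPM, a ratio of 0.69 whose interval began at 0.01. Egr1, at −0.09, and Nr4a1, at 0.03, were close to no difference. Heat shock genes summed to 5538 and 4987 CPM. The macrophage markers, the most abundant of the other lists apart from leukocyte markers, summed to 518 and 551 CPM with 3 of 10 higher. Less abundant lists went both ways. Endothelial markers summed to 149 and 177 CPM with 6 of 12 higher, and fibroblast markers to 122.5 and 95.9 CPM with 4 of 8 higher. Neuron markers summed to 60.6 and 38.1 CPM with 6 of 8 higher, and neural crest markers to 36.1 and 16.9 CPM with 6 of 6 higher. Their part in the higher members was not tested.

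In macrophage-like cells, where most of the 10 genes were high, none of the 10 passed the size rule, beside 2.66% of all genes higher and 0.647% lower. Egr1 was at −0.33, Zfp36 at −0.13 and Fos at 0.03. The macrophage-like clusters differed more from each other than the genotypes did. In the cluster led by P2ry12, Fos had 1189 CPM in Foxq1iECKO and 1075 CPM in Foxq1flox/flox, and in the cluster led by the interferon-induced Rsad2 and Ifit1 it had 241 and 214 CPM. Egr1 had 1623 and 1757 CPM in the P2ry12 cluster and 201 and 315 CPM in the Rsad2 cluster. Zfp36 changed less between these clusters, with 2292 and 2327 CPM in the P2ry12 cluster and 1290.4 and 1325 CPM in the Rsad2 cluster. The Rsad2 cluster, with 219 and 77 cells, had 2 of the 10 lower by size beside 4.2% of all genes: Egr1, at −0.65, and Nr4a1, with 56.9 and 87.1 CPM, at −0.61.

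Zfp36 was higher by size in radial glia-like cells and in the Neurod6/Neurod2/Eomes cluster. Radial glia-like cells had 33.6 CPM in Foxq1iECKO and 22.2 CPM in Foxq1flox/flox, a log2 ratio of 0.60 with an interval of 0.23 to 0.97, beside 1.65% of all genes higher by size. The Neurod6/Neurod2/Eomes cluster had 21.03 and 8.46 CPM, a ratio of 1.31 with an interval of 0.49 to 2.22, beside 2.07% higher by size. Both rest on low levels. Macrophage-like cells, with 1878 and 2062 CPM of Zfp36, numbered 2008 in Foxq1iECKO and 1472 in Foxq1flox/flox. The part of their RNA in these ratios was not tested. In neuron-like cells Zfp36 was at 0.21, with an interval of −0.27 to 0.68. The 2 radial glia-like clusters differed. The one led by Pax6 and Nr2e1 had 37.4 and 15.6 CPM of Zfp36, a ratio of 1.26 beside 1.84% of all genes higher by size, and Klf2 was also higher there, with 16.9 and 9.44 CPM. The one led by Ttr and Fabp7 had 28.6 and 31.9 CPM of Zfp36, at −0.16 with an interval of −0.70 to 0.39. In that cluster Junb, with 43.3 and 27.1 CPM, and Ier2, with 15.1 and 6.62 CPM, were higher by size beside 2.7% of all genes. Zfp36 overlaps Gm44710 on the opposite strand and Atf3 overlaps Gm24748, so low values of either may hold reads of the other gene.

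Of the endothelial subclusters, Adgrg6/Tll1/Zfp791 was the one in which Fos was higher by size. It had 536 CPM in Foxq1iECKO and 343 CPM in Foxq1flox/flox, a log2 ratio of 0.64 beside 2.48% of all genes, and Zfp36 followed with 371 and 248 CPM at 0.58. Cells of this subcluster had medians of 2279 and 2369 UMIs and a mitochondrial share of 10.3% and 10.95%, a lower depth and a higher share than in pooled endothelial-like cells. In the Gbp2/Iigp1/Ifit1 subcluster Egr1 was lower by size, with 58.0 and 92.0 CPM at −0.66. Elsewhere in the endothelium Fos ranged from −0.36 in the Gbp2/Iigp1/Ifit1 subcluster to 0.38 in the barrier subcluster led by Apod.

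Some fibroblast-like clusters held calls that the pooled class did not. The cluster led by Cldn11 and Calca had Nr4a1 lower by size, with 176 CPM in Foxq1iECKO and 327 CPM in Foxq1flox/flox, a log2 ratio of −0.89 beside 4.11% of all genes. The cluster led by Tnn and Mab21l2 had 157 and 159.6 CPM, at −0.02. In the cluster led by Aldh1a2 and Agtr2, 2 genes were higher by size beside 2.06% of all genes: Atf3, with 102 and 63.2 CPM at 0.69, and Klf2, with 109 and 72.3 CPM at 0.60.

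Units with fewer than 100 cells in a library gave calls that rest on few cells. Leukocyte-like cells, 94 in Foxq1iECKO and 96 in Foxq1flox/flox, had 4 of the 10 genes higher by size beside 5.69% of all genes. Klf4 had 114 and 22.4 CPM, Klf2 208 and 63.2 CPM, Fos 353 and 188 CPM and Nr4a1 249.2 and 163 CPM. Nr4a1 thus ran opposite to its direction in endothelial-like cells. The Hbb-y/Hbb-bs/Hbb-bt cluster, which held all 12 endothelial and 7 of 9 erythroid markers in 92 and 158 cells, had 2 of the 10 higher beside 4.29% of all genes. These were Fos, with 323 and 187 CPM, and Egr1, with 137 and 78.1 CPM, while Klf2 was at 235 and 321 CPM, a log2 ratio of −0.45.

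Neural crest-like cells, 77 in Foxq1iECKO and 28 in Foxq1flox/flox, had 3 genes higher by size beside 1.89% of all genes. Jun had 659 and 292 CPM, Fos 305 and 138 CPM and Klf4 242 and 115 CPM. Megakaryocyte-like cells, 50 and 74 in number, went both ways. Egr1, with 485 and 758 CPM, and Jun, with 355 and 546 CPM, were lower beside 3.87% of all genes, and Klf4, with 187 and 101 CPM, was higher beside 3.03%. In skeletal muscle-like cells, 39 and 38 in number, Egr1 was higher, with 99.3 and 43.6 CPM, beside 3.73% of all genes.

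Fos, Egr1 and Zfp36 were the most uneven of the immediate early genes from cell to cell in Foxq1iECKO, while Junb and Ier2 were within the usual range of genes in both libraries. In endothelial-like cells thinned to 2000 UMIs, the variance of the Fos count over its mean was 3.18 in Foxq1iECKO and 3.91 in Foxq1flox/flox, against a median of 1.09 in both libraries over genes of similar level and 95th percentiles of 1.51 and 1.48. The top 10% of cells by Fos count held 70.0% and 73.1% of all Fos UMIs. Egr1 had a ratio of 2.11 and 2.18, Zfp36 2.14 and 2.03, Klf2 1.75 and 1.82, and Klf4 1.83 and 1.89. For Nr4a1 the 2 measures went opposite ways between the libraries, at means of 0.194 UMIs per cell in Foxq1iECKO and 0.276 in Foxq1flox/flox. Its top 10% of cells held 78.0% of its UMIs in Foxq1iECKO and 73.2% in Foxq1flox/flox. Its variance over mean was 1.47 and 2.08, and its highest count in a thinned cell was 4 and 9 UMIs. Atf3 was at 1.55 and 1.61. Jun, at 1.40 in Foxq1iECKO and 1.67 in Foxq1flox/flox, passed the 95th percentile only in Foxq1flox/flox, and Junb, at 1.22 and 1.33, in neither library. Ier2, at 0.999 and 1.05, was near 1, the value of counts that vary by counting noise alone.

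**Figure D5:**
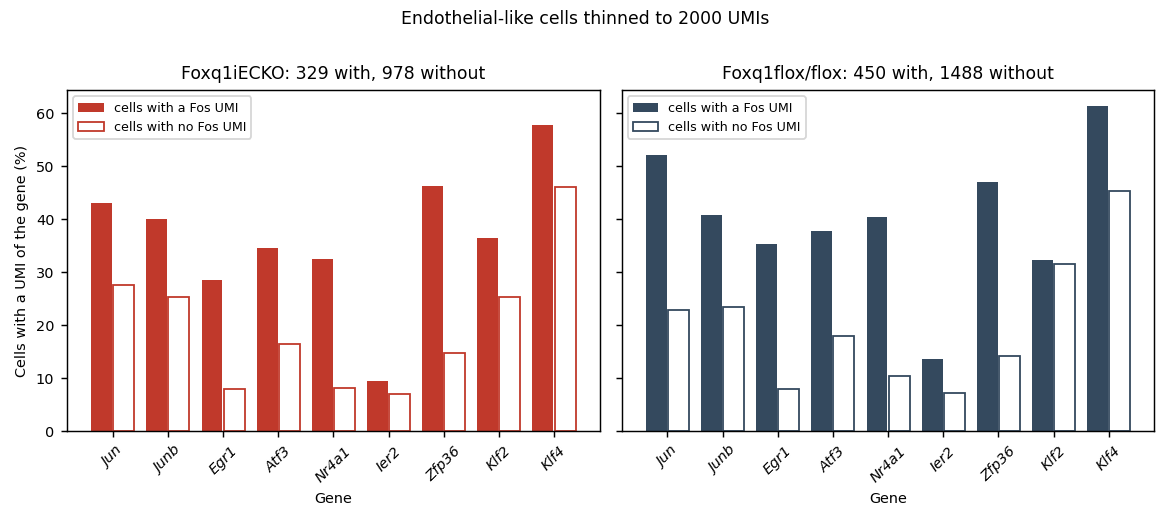
Share of endothelial-like cells with a UMI of each other gene, for cells with a Fos UMI (filled bars) and without one (open bars), in Foxq1iECKO (left panel) and Foxq1flox/flox (right panel), all cells thinned to 2000 UMIs. The filled bars of Zfp36, Egr1 and Nr4a1 are much taller than the open ones in both libraries, such as 46.2% and 14.8% for Zfp36 in Foxq1iECKO, while those of Ier2, Klf2 and Klf4 are closer to them.

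Cells with Fos more often held Zfp36, Egr1 and Nr4a1, and the split was narrower for Ier2 and the KLF genes. Zfp36 was detected in 46.2% of 329 Foxq1iECKO endothelial-like cells with a Fos UMI and in 14.8% of 978 cells without, and in 47.1% of 450 and 14.2% of 1488 Foxq1flox/flox cells. Egr1 was detected in 28.6% and 7.98% of these cells in Foxq1iECKO and in 35.3% and 7.93% in Foxq1flox/flox. For Nr4a1 the shares were 32.5% and 8.18% in Foxq1iECKO and 40.4% and 10.4% in Foxq1flox/flox. Jun showed a narrower split in Foxq1iECKO, with 43.2% and 27.6%, than in Foxq1flox/flox, with 52.2% and 22.8%. Junb was found in 40.1% and 25.3% in Foxq1iECKO and in 40.9% and 23.4% in Foxq1flox/flox, and Atf3 in 34.7% and 16.4% and in 37.8% and 18.0%. Ier2 was found in 9.42% of Foxq1iECKO cells with Fos and 6.95% without, and in 13.6% and 7.26% of Foxq1flox/flox cells. Klf2 was found in 36.5% of cells with Fos and 25.3% without in Foxq1iECKO, and in 32.2% and 31.5% in Foxq1flox/flox. Klf4 was found in 57.8% of Foxq1iECKO cells with Fos and 46.1% without, and in 61.3% and 45.3% of Foxq1flox/flox cells. Split by Klf2 in place of Fos, Klf4 was found in 63.8% of Foxq1iECKO cells with a Klf2 UMI and 43.3% without, and in 59.3% and 44.3% of Foxq1flox/flox cells. Its split by Jun was of like width in Foxq1iECKO, with 61.7% and 43.2%, as was its split by Fos in Foxq1flox/flox.

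Few endothelial-like cells held many of the 10 genes at once. At 2000 UMIs per cell, 12.55% of Foxq1iECKO and 15.1% of Foxq1flox/flox endothelial-like cells had a UMI of 5 or more of the genes, and 15.0% and 15.1% had none. In macrophage-like cells 50.9% and 53.9% had 5 or more. In neuron-like cells 38.2% and 35.5% had none.

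Across 25 units of a class and library with at least 100 cells, correlations between levels of the genes are given as a description, since the units share libraries, depth and free RNA. Pearson's r of log2(CPM + 5) was 0.88 for Fos and Jun, 0.87 for Jun and Egr1, 0.87 for Junb and Zfp36, 0.85 for Ier2 and Zfp36, 0.82 for Klf2 and Atf3, and 0.78 both for Klf2 and Junb and for Klf2 and Klf4. Among 10059 genes, those most like Fos were Jun, Axl, Eps8, Fosb and Plxdc2, with r between 0.88 and 0.81. Those most like Klf2 were Ppard, Cpd, Vamp3, Itga5 and Socs3, between 0.91 and 0.90. Those most like Klf4 were Ppic, Lats2, Adgra2, Foxc1 and Dock1, between 0.96 and 0.93.

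The wider pathway was checked in pooled endothelial-like cells with 7 lists of related genes. Of 36 other immediate early genes, 34 were in the files and 30 reached 10 CPM, of which 1 was higher by size and 0 were lower, beside 0.888% and 0.963% of all genes, with a median log2 ratio of −0.03. The higher one was Myc, a growth-promoting transcription factor, with 69.2 CPM in Foxq1iECKO and 45.4 CPM in Foxq1flox/flox, a ratio of 0.61. The most abundant of them were Zfp36l1, a relative of Zfp36, with 1813 and 1745 CPM, Klf6, with 615 and 589 CPM, and Nfkbia, an NF-kB inhibitor, with 551 and 607 CPM. The other nuclear receptors of the Nr4a family, named here after their values were seen, were Nr4a2 with 148 and 171 CPM, at −0.21, and Nr4a3 with 44.2 and 59.6 CPM, at −0.43, both short of the size rule. Of 15 other KLF genes, 10 were measured and none was higher or lower by size, with a median of −0.07. Klf7 had 269 and 294 CPM, Klf13 229 and 254 CPM and Klf3 191 and 186 CPM.

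Upstream of the immediate early genes, 13 of 17 listed factors were measured and none passed the size rule, with a median of −0.01. Elk3, a ternary complex factor that binds beside SRF, had 321 CPM in Foxq1iECKO and 356 CPM in Foxq1flox/flox. The 16 genes of flow sensing and the ERK5 pathway were all measured and none passed, with a median of −0.09. Cdh5, the endothelial junction cadherin, had 892 and 1033 CPM, Mef2a had 439 and 494 CPM and Mef2c had 267 and 312 CPM. 

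Of 15 listed KLF2 and KLF4 targets, 13 were measured, 2 were higher and 1 was lower by size, beside 0.888% and 0.963% of all genes, with a median of −0.01. Thbs1, which encodes thrombospondin 1, had 122 CPM in Foxq1iECKO and 65.7 CPM in Foxq1flox/flox, and Ccl2, a monocyte chemokine, had 149 and 80.7 CPM. Gja4, the gap junction gene of arteries, had 11.6 and 24.0 CPM, a log2 ratio of −1.04. S1pr1, the sphingosine 1-phosphate receptor of vessels, had 902 and 1004 CPM, short of the size rule. KLF2 is known to raise S1pr1 and to repress Ccl2 in endothelium. Ccl2 was among the leading genes of the Gbp2/Iigp1/Ifit1 subcluster, with 379 of 1599 Foxq1iECKO and 382 of 2272 Foxq1flox/flox endothelial-like cells. Gja4 was among those of the Cxcl12/Fbln2/Nebl subcluster, with 54 and 120 cells. The part of KLF2 or of this mix of subclusters in the levels of these targets was not tested. Of 10 heat shock genes, 1 was lower by size, beside 0.963% of all genes. It was Hspa1a, with 31.9 and 60.7 CPM, and its near-identical copy Hspa1b can share its reads. Of 12 ZFP36 target and NF-kB response genes, 9 were measured and none passed, with a median of −0.14.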

How the data were processed

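The matrices deposited by the authors held counts: for each gene and barcode a whole number of UMIs, not normalized. Per the submitters' processing notes, fastp 0.24.0, STARsolo 2.7.11b and the build mm10 were used; the sources used here do not state their order, the annotation, the strand setting or the barcode filter. The 10 genes and the gene lists were chosen with earlier results of these data known.

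Barcodes needed 500 genes, 1000 UMIs and no more than 20% mitochondrial UMIs, and doublets called by Scrublet in scanpy 1.11.5, at an expected rate of 0.08, were removed: 582 in Foxq1iECKO and 583 in Foxq1flox/flox. Both libraries were clustered together by the Leiden method (leidenalg 0.10.2) at resolution 1, with 2000 variable genes, 30 principal components and 20 neighbours, and endothelial-like cells again at 0.6. The 10 genes and the immediate early and heat shock lists were left out of the variable genes. Clusters were named from marker lists. A cluster stayed unnamed where it had too few markers of every list, or where its leading genes held more markers of another list than of its best one. Clusters with many markers of unrelated lists were given no single class.

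Summed UMIs were scaled to the UMI total of the cells summed (CPM). Levels have exact Poisson intervals, shares Clopper-Pearson intervals and ratios conditional binomial intervals, all at 95%, which cover counting error only and not differences between embryos or collections. A gene was higher or lower by size at a ratio of 1.5 or more with an interval that excluded 1, among genes that reached 10 CPM in either library. Log2 ratios are Foxq1iECKO over Foxq1flox/flox. For shares, each cell was thinned to 2000 UMIs. All 10 genes are named; of each list, genes past the size rule and then the most abundant, up to 4, are named, and the 5 genes most like Fos, Klf2 and Klf4. Some genes that this rule names are not reported here. Simulated counts served to test the size rule. Alternatives covered scaling (TMM in edgeR 4.0.16, median of ratios in DESeq2 1.42.0, a total without stress genes), doublets, cell filters, clustering, cell choice and thinning. Further tools were matplotlib 3.10.9, pandas 2.3.3, scipy 1.17.1 and numpy 2.4.6 under Python 3.11.15.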

Additional observations from a re-analysis of the deposited data

Results flagged for a closer look

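Klf2 and Zfp36 had ratios of opposite sign in different cell classes with counting intervals that excluded no difference on both sides. The Klf2 log2 ratio of Foxq1iECKO over Foxq1flox/flox was 0.674 in fibroblast-like cells, with an interval of 0.56 to 0.79, and −0.24 in pericyte-like cells, with an interval of −0.46 to −0.01. The Zfp36 log2 ratio was 0.595 in radial glia-like cells, with an interval of 0.23 to 0.97, and −0.13 in macrophage-like cells, with an interval of −0.17 to −0.10. With 1 library per genotype, the difference between classes was not tested in either case.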

How the results depend on the processing

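No paired analysis was possible because there was 1 library per genotype. The count of members higher by size in endothelial-like cells was 0 under all 16 alternatives. The count of lower members, 1 (Nr4a1), became 0 with the stricter cell filter, at clustering resolution 0.5, with clusters of endothelial and other markers added, with the same weight for subclusters, with the marker gate and with cells thinned to 2000 UMIs. The Nr4a1 ratio stayed below 0 in all 16, from −0.80 to −0.08, and was past the size rule in 10. The median of the 10 genes, −0.10, turned to 0.067 at resolution 0.5, 0.060 with those clusters added, 0.020 with the same weights and 0.026 with the gate. The Fos ratio in endothelial-like cells ran from −0.03 to 0.47. The Klf2 ratio in fibroblast-like cells ran from 0.53 to 0.75 over 15 alternatives and passed the rule in 14; with its clusters weighted alike it was 0.43 and did not pass.

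The ratios of endothelial-like over other cells moved most, and are given for Foxq1iECKO and then Foxq1flox/flox. Klf2, at 0.10 and 0.55, became 0.38 and 0.89 with TMM, 0.34 and 0.84 with the median of ratios, 0.57 and 0.89 with the stricter filter, 0.83 and 0.99 at resolution 0.5, 0.83 and 1.06 with the clusters of endothelial and other markers added, −0.26 and 0.21 with the gate, and 0.23 and 0.68 thinned. Klf4, at 0.29 and 0.69, became 0.57 and 1.02 with TMM, 0.53 and 0.97 with the median of ratios, 0.64 and 0.95 with the stricter filter, 0.65 and 0.92 at resolution 0.5, 0.64 and 0.94 with clusters added, and 0.064 and 0.19 with the gate. In Foxq1flox/flox Klf4 was 0.73 with the total that leaves out stress genes. Of the 3 alternatives chosen after seeing the data, the stricter filter with the endothelial and erythroid cluster added gave 0.37 and 0.79 for Klf4, leaving out endothelial subclusters of low UMI count gave 0.36 and 0.76, and leaving out shared barcodes gave 0.30 and 0.68.

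Over the named classes with at least 100 cells in each library, 6 calls of members in 8 classes became 11 in 9 classes at resolution 0.5. At resolution 2 they became 14 in 10 classes, so these counts do not cover the same classes. At resolution 0.5 the leukocyte-like class was led by Cpa3, Cma1 and Gzmb, whose cluster was unnamed and not counted at resolution 1. The percent of all genes called, 0.888% higher and 0.963% lower, was 1.96% and 1.68% with no filter on low counts. The same weight for endothelial subclusters was not applied to the ratios against other cells or to the count over classes. The cause of these shifts was not tested, apart from the smaller endothelial set of the stricter filter, 263 and 616 cells. Counting intervals say nothing of variation between embryos, and shares of cells are limited at 2000 UMIs per cell.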
